A study of Macaca fascicularis with 20 samples.

Results

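PECAM1, CDH5, ANGPT1 and DCN are genes by which blood vessels and the connective tissue around them are usually recognised, and their signal was followed in natural killer (NK) cells sorted from the spleen of cynomolgus macaques (Macaca fascicularis). Every probe was taken whose RefSeq transcript accession belonged to 1 of these 4 symbols in the gene table of the species. That gave 11 probes of 4 genes, out of 20417 matched probes of 12530 genes. The 4 genes were chosen by their measured log2 levels in the NK subsets and B cells of these same arrays, so their levels and differences are given as descriptions and carry no p-value.

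The study divided splenic NK cells by 2 surface proteins, the TNF receptor family member CD27 and the integrin chain CD11b, and measured RNA on 20 one-colour arrays. The groups were CD27+ CD11b+ cells (double positive, 5 arrays), CD27lo CD11b+ cells (CD11b single positive, 5 arrays), CD27+ CD11blo cells (CD27 single positive, 4 arrays), CD27lo CD11blo cells (double low, 4 arrays) and B cells (2 arrays). All cells came from frozen spleen samples, were thawed and were left unstimulated. The NK subsets shared a gate of live CD45+ cells without CD3, CD14, CD20 or HLA-DR and were NKG2A+ and CD8a+, whereas B cells were HLA-DR+ and CD20+ and lacked NKG2A and CD8a. None of the 20 arrays holds sorted endothelial or stromal cells. Ages in the labels were 4 years for replicate 1, unknown for replicate 2 and, for the arrays numbered 3, 12 years in double positives, 11 in CD11b single positives, 10 in CD27 single positives and 9 in double-low cells. Whether the arrays numbered 3 come from 1 animal or 4 is not given in the labels. They were 18 years for replicate 4 of the CD11blo subsets, 5 years for replicate 4 of the CD11b+ subsets and 18 years for their replicate 5. The B cell labels gave 5 and 18 years.

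PECAM1 encodes CD31, an adhesion receptor of the junctions between endothelial cells that platelets, monocytes, neutrophils and part of the lymphocytes carry as well. CDH5 encodes VE-cadherin, the cadherin that holds endothelial adherens junctions together. ANGPT1 encodes angiopoietin-1, a ligand that cells lying along vessels release and that acts on the TIE2 receptor, encoded by TEK, of endothelial cells. DCN encodes decorin, a small leucine-rich proteoglycan that fibroblasts deposit and that binds collagen fibrils.

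A level below is the log2 of a probe's processed signal minus the log2 of the 75th percentile of its array, so 0 is the brightness of a fairly strong probe. Over the 20 arrays that percentile lay between 180 and 1901 units (median 1281). The dimmest arrays were replicate 4 of the double positives, at 180 units, and replicate 4 of the double-low cells, at 201, with the next at 578. Between 67.9% and 96.0% of all probes were well above background by the scanner software's flag, and precision is set by how few arrays each group has. The arrays lay on 3 slides. On slide 1 were replicates 1 and 2 from each NK subset. On slide 2 were the NK arrays numbered 3, the CD11blo arrays numbered 4 and the B cells, and on slide 3 the CD11b+ arrays numbered 4 and 5.

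By 1 of its 6 probes PECAM1 was lower on every NK array than on both B cell arrays, and by the other 5 the groups overlapped. Its brightest probe (transcript XM_005584700), which stands for the gene below, was well above background on all 20 arrays. In double-positive cells its levels were -2.40, 0.70, -1.25, -1.39 and -0.77 in replicates 1 to 5. In CD11b single positives they were 0.62, 0.32, 0.14, -0.98 and -0.07, and in CD27 single positives 0.05, 0.25, 1.05 and -0.74. Double-low cells had 0.59, 0.79, -0.08 and 0.40, and B cells had 1.31 and 2.19. The 4 NK subsets overlapped one another, with 4 of the 5 double-positive arrays at or below -0.77 and the remaining one, replicate 2, within the range of the other subsets. All 18 NK arrays lay below both B cell arrays, a separation that 3.17% of all genes tested showed in that direction. With the other 5 probes between 9 and 17 of the 18 NK arrays lay below both B cell arrays, and by XM_005584706 the double-low mean (0.02 ± 1.35) was not below that of B cells (-0.07 ± 0.64; SD).

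In order of their mean level the groups ran from B cells (1.75 ± 0.62) through double-low cells (0.42 ± 0.37), CD27 single positives (0.15 ± 0.74) and CD11b single positives (0.01 ± 0.61) to double positives (-1.02 ± 1.13; SD). The step from double-low cells to B cells, 1.33, exceeded the larger SD of the pair. None of the steps between neighbouring NK subsets did. In units of intensity the NK arrays ran from 68.6 to 2977 with a median of 1049, against 4115 and 6633 on the B cell arrays.

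The other 5 PECAM1 probes, each designed on another transcript record of the gene, did not all rank the groups alike. Over the 18 NK arrays XM_005584700, XM_005584701 and XM_005584704 correlated with one another (Pearson r between 0.35 and 0.65), and XM_005584705, XM_005584706 and XM_005584707 did so more closely (r between 0.63 and 0.76). Between these sets r lay between -0.06 and 0.47. These coefficients describe 18 arrays that share their scaling and their background, and the sets were formed after the values were seen.

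By XM_005584701 all 5 double-positive arrays, at -2.76, -2.26, -3.88, -2.99 and -3.61, lay below all 4 CD27 single-positive arrays (-1.37, -2.13, -0.96 and -2.17) and all 4 double-low arrays (-1.84, -1.58, -1.57 and -1.80). Of all genes, by the probe standing for each, 0.279% and 5.6% showed those separations. By XM_005584707 all 5 CD11b single-positive arrays, between -1.20 and 0.44, lay above all 4 CD27 single-positive arrays, between -2.14 and -1.40. That separation held for 0.927% of all genes, and no such separation appeared with the other 5 probes. Double-low replicate 4, one of the dimmest arrays, was the highest NK array by XM_005584705 (2.48), XM_005584706 (1.91) and XM_005584707 (1.84) but stood at 0.40 by XM_005584700 and -2.85 by XM_005584704. Double-low replicate 1 was the lowest NK array by XM_005584707 at -4.61, where it was not well above background.

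**Figure D1:**
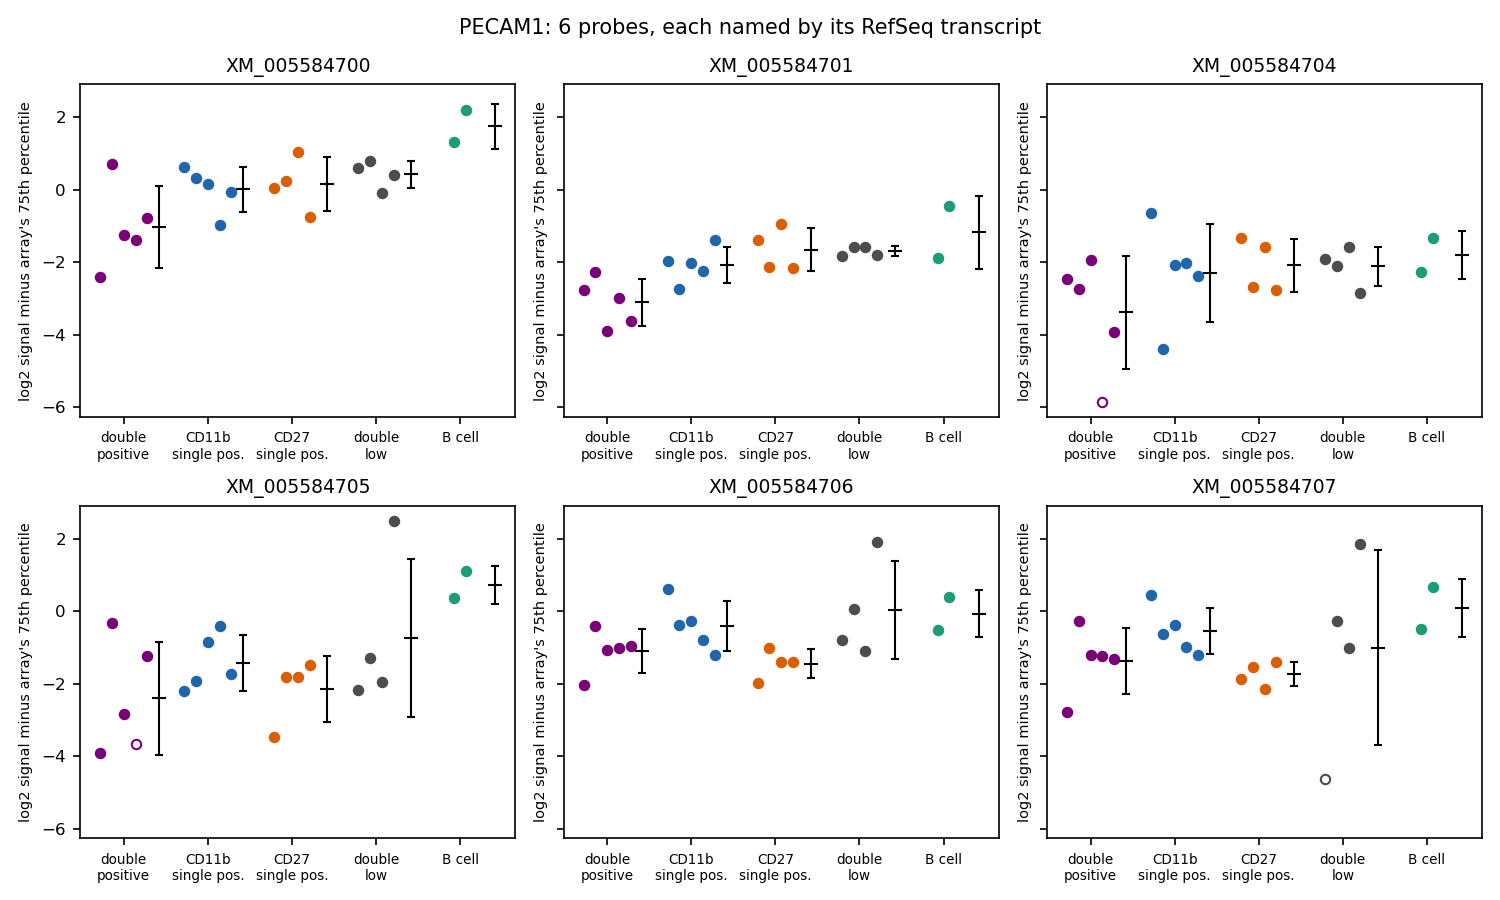
Level of each of the 6 PECAM1 probes (log2 signal minus the array's 75th percentile, vertical axis) on each array, by group along the horizontal axis. Filled points are well above background, open points are not, and bars give the mean and SD of the group. The upper right panel shows double-positive replicate 4 at -5.84, and the lower panels show double-low replicate 4 between 1.84 and 2.48, apart from the other 3 double-low arrays.

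CDH5 was well above background on all 20 arrays with its single probe (XM_005592138). Its level was -3.32, -2.75, -1.45, -2.31 and -3.47 in double positives, -0.71, -1.83, -2.03, -2.87 and -1.93 in CD11b single positives, and -2.68, -2.44, -1.84 and -1.89 in CD27 single positives. Double-low cells had -1.07, -1.56, -1.26 and -1.15, and B cells had -3.27 and -3.23. All 4 CD27 single-positive arrays lay below all 4 double-low arrays, as 16.9% of all genes did, and the other pairs of NK subsets overlapped. Of the 18 NK arrays 16 were above both B cell arrays, and the 2 below them were double positives (replicates 1 and 5).

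The mean level of CDH5 ran from double-low cells (-1.26 ± 0.21) through CD11b single positives (-1.87 ± 0.77), CD27 single positives (-2.21 ± 0.41) and double positives (-2.66 ± 0.82) to B cells (-3.25 ± 0.03; SD). No step between neighbours in this order exceeded the larger SD of the pair. The probe stood between 11.6 and 83.6 times above the median negative control spot on the NK arrays, and 18.0 and 19.3 times on the B cell arrays.

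ANGPT1 was well above background on all double-low arrays and on only part of the arrays of the other NK subsets. Its brighter probe (XM_005563923) was well above background on 2 of 5 double-positive, 2 of 5 CD11b single-positive, 3 of 4 CD27 single-positive and 4 of 4 double-low arrays, and on neither B cell array. Double positives had levels of -5.14, -7.96, -4.92, -5.84 and -7.93, CD11b single positives had -4.82, -5.36, -4.61, -6.18 and -4.63, and CD27 single positives had -5.45, -5.66, -4.77 and -3.78. Double-low levels were -2.14, -4.63, -2.04 and -3.05, which corresponded to 185, 42.9, 339 and 24.3 units of intensity, and the B cell arrays stood at -6.16 and -5.69. Double-low replicates 1 and 3 stood 27.1 and 48.6 times above the median negative control spot, but replicates 2 and 4 stood only 7.95 and 9.34 times above it, against up to 9.18 times in CD27 single positives. All 5 double-positive arrays lay below all 4 double-low arrays, a separation shown by 5.6% of all genes. Double-low replicate 2 overlapped the other 2 NK subsets, and the other 3 double-low arrays lay above every array of any other group.

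The mean level of ANGPT1 ran from double-low cells (-2.96 ± 1.20) through CD27 single positives (-4.91 ± 0.85), CD11b single positives (-5.12 ± 0.66) and B cells (-5.93 ± 0.34) to double positives (-6.36 ± 1.49; SD). The step of 1.95 below double-low cells exceeded the larger SD of its pair. The lower end of the order is not settled, since the probe was not well above background on either B cell array or on 3 of 5 double-positive arrays, 2 of which lay at the lowest signal of the array. Double positives minus double-low cells came to -3.39 ± 0.74 (log2 difference ± SE of the limma fit), where the median over all genes was -0.47, and the size of that difference rests in part on those 3 unmeasured arrays. Against the B cells, whose arrays give only an upper limit, double-low cells were at least 4.74-fold higher. That bound sets the mean level of the double-low arrays against the dimmest signal that counted as well above background on the B cell arrays.

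The other ANGPT1 probe, XM_005563922, followed the first over the NK arrays (r = 0.85, 18 arrays). It was well above background on none of the 5 double-positive arrays, 3 of 5 CD11b single-positive, 1 of 4 CD27 single-positive and 4 of 4 double-low arrays, and on neither B cell array. Its double-low levels were -2.37, -5.07, -2.59 and -3.35, so replicate 2 was again the lowest. By this probe double positives were at least 3.53-fold lower than double-low cells, and double-low cells were at least 3.64-fold higher than B cells. Double-positive replicate 4 (-4.94) overlapped double-low replicate 2 here, and on 1 double-positive and 1 B cell array the probe lay at the lowest signal of the array.

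DCN was well above background on no double-positive and no B cell array with either of its probes. The brighter probe (XM_005571846) was well above background on 3 of 5 CD11b single-positive, 1 of 4 CD27 single-positive and 3 of 4 double-low arrays. Its levels were -7.53, -6.06, -5.75, -5.75 and -6.99 in double positives, against -4.29, -4.98, -4.88, -4.98 and -5.52 in CD11b single positives. CD27 single positives had -7.07, -6.33, -5.32 and -5.63, double-low cells had -5.86, -4.60, -4.58 and -3.87, and B cells had -7.09 and -5.88. All 5 double-positive arrays lay below all 5 CD11b single-positive arrays, as 0.172% of all genes did. Since no double-positive array measured the probe, the difference has only an approximate bound, 1.18-fold lower in double positives. Bounds here use the mean over all arrays of the brighter group. Only 3 of these 5 CD11b single-positive arrays were well above background, so this bound is not strict. The signal behind it was 3.33 to 21.7 units in double positives and 12.6 to 44.5 units in CD11b single positives.

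The mean level of DCN ran from double-low cells (-4.73 ± 0.83) through CD11b single positives (-4.93 ± 0.44), CD27 single positives (-6.09 ± 0.78) and double positives (-6.42 ± 0.80) to B cells (-6.49 ± 0.86; SD). Only the step of 1.16 between the single-positive subsets exceeded the larger SD of its pair. Double positives and B cells, where no array measured the probe, have no settled order.

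The second DCN probe (XM_005571847) correlated with the first (r = 0.86, 18 NK arrays), and with it the double positives and CD11b single positives overlapped. Double-positive replicate 3 stood at -4.59 without being well above background, and the other 4 double-positive arrays lay between -7.93 and -5.45. CD11b single positives had -4.32, -5.46, -5.14, -6.29 and -4.99 and were well above background on 2 of 5 arrays. No bound above 1 could be given for that pair with this probe. For double positives against double-low cells the bounds were 1.36-fold lower by the first probe and 1.26-fold lower by the second. They are not strict either, since only 3 of 4 double-low arrays were well above background with each probe.

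In these bulk samples fewer cells of a type and less RNA per cell cannot be told apart, and this holds for each of the 4 genes.

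**Figure D2:**
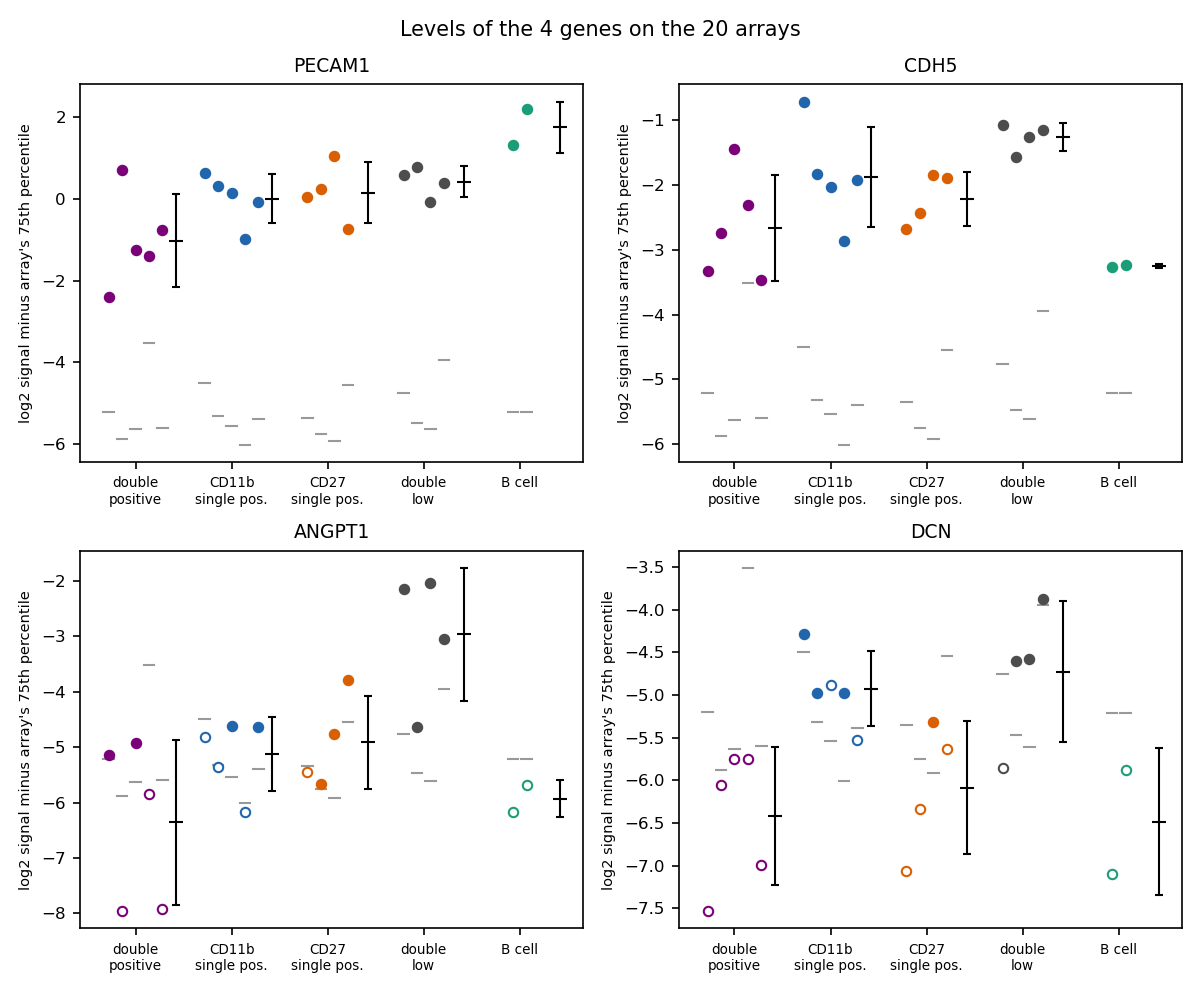
Level of PECAM1, CDH5, ANGPT1 and DCN by the brightest probe of each (log2 signal minus the array's 75th percentile, vertical axis) on every array, by group along the horizontal axis, with replicates in number order. Filled points are well above background, open points are not, grey ticks mark the dimmest signal that was well above background on the same array, and bars give the mean and SD of the group. PECAM1 and CDH5 lie above the ticks on all 20 arrays, while most DCN points lie near or below them.

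Double positives were set against CD11b single positives, CD11b+ subsets that differ in CD27, because the stromal genes were proposed from NK subset differences. PECAM1 differed by -1.03 ± 0.50, CDH5 by -0.79 ± 0.45 and ANGPT1 by -1.24 ± 0.69 (log2 ± SE), while DCN has only the bound given above. ANGPT1 was well above background on 2 of 5 arrays in each of these subsets, and its difference was -0.16 with normexp background correction. None of the 4 was among the genes called at an adjusted p under 0.05, since 0 of 12192 genes (0%) were called by limma with Benjamini-Hochberg adjustment and 723 had an unadjusted p under 0.05. The median difference over all genes was itself -0.28, so the distribution was not centred on 0. PECAM1, CDH5 and ANGPT1, which were chosen by these same levels, lay below that median. All 6 PECAM1 probes were negative in this comparison, from -1.08 to -0.69. The comparisons that follow share arrays with this one and with each other, so their values are not independent.

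Over both CD27+ subsets against both CD27lo subsets the differences were -0.65 ± 0.37 for PECAM1, -0.87 ± 0.33 for CDH5, -1.59 ± 0.52 for ANGPT1 and -1.42 ± 0.40 for DCN. The median over all genes was -0.37, and again 0 of 12192 genes (0%) were called, with 2722 at an unadjusted p under 0.05. All 6 PECAM1 probes were negative, between -1.19 and -0.50. Both ANGPT1 probes (-1.59 and -1.90) and both DCN probes (-1.42 and -1.31) were negative too, with DCN well above background in the CD27+ subsets on 1 CD27 single-positive array only. With normexp the differences of the brighter probes were -0.73 for ANGPT1 and -0.55 for DCN.

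Over both CD11b+ subsets against both CD11blo subsets ANGPT1 had the largest difference of the 4, -1.80 ± 0.52, with PECAM1 at -0.80 ± 0.37, CDH5 at -0.53 ± 0.33 and DCN at -0.27 ± 0.40. With normexp ANGPT1 was at -0.60. The median of all genes was -0.13. The 2 genes called of 12192 (0.0164%) were PRF1, the perforin gene, and PLEKHG3, both higher in CD11b+ cells, with 0 called when slide was a block, and 615 genes had an unadjusted p under 0.05. The PECAM1 probes did not share a direction here and ran from -0.91 (XM_005584701) to 0.41 (XM_005584707). No gene was called by the F test for any difference among the 4 NK subsets, with 1068 genes at an unadjusted p under 0.05.

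NK cells against B cells gave PECAM1 and CDH5 opposite signs. PECAM1 was -1.86 ± 0.58, lower in NK cells, and all 6 of its probes were negative, from -2.40 to -0.66. CDH5 was 1.25 ± 0.51, while the median over all genes was 0.36. ANGPT1 and DCN were not measured on either B cell array and have only bounds. None of the 4 was among the 362 of 12388 genes called (2.92%), of which 213 were higher (1.72%) and 149 lower (1.2%) in NK cells, with 2808 at an unadjusted p under 0.05. Under other scalings calls lower in NK cells were the more numerous: quantile normalization gave 89 genes up and 162 down, normexp 98 and 154, and the deposited matrix 88 and 165. For ANGPT1 the NK level, averaged over subsets, gave an approximate bound of 1.29-fold above the B cell limit. It is not strict, since only 11 of 18 NK arrays were well above background, and XM_005563922 gave no such bound above 1. Taken singly, double-low cells gave 4.74-fold, CD27 single positives 1.23-fold and CD11b single positives 1.06-fold. Double positives gave none, their mean (-6.36) lying below that of B cells (-5.93). For DCN the NK average gave no bound above 1.

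**Figure D3:**
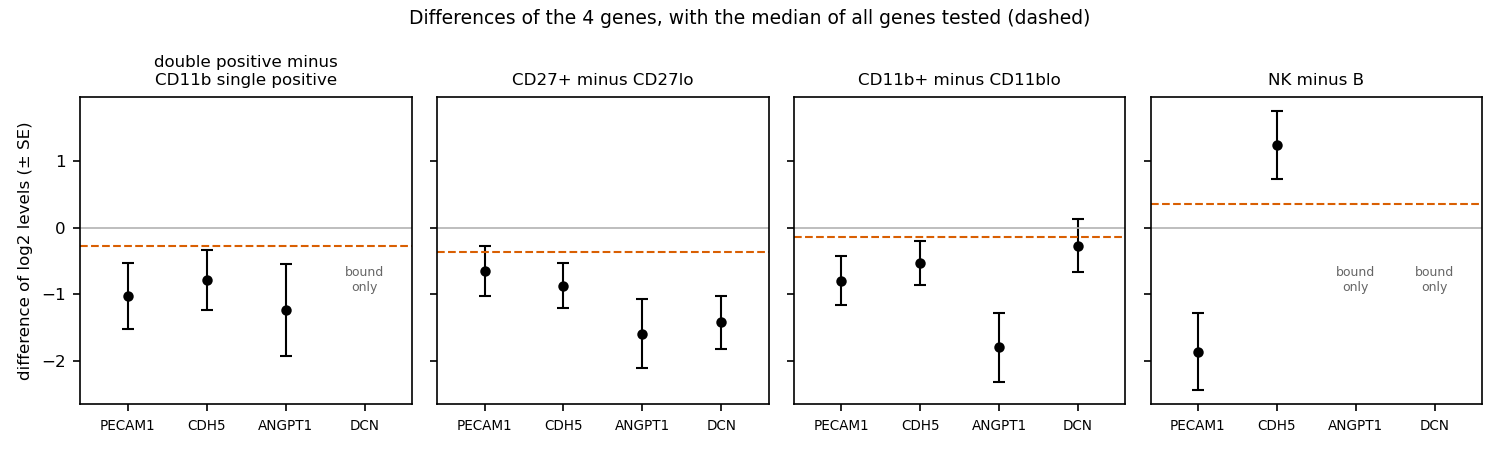
Difference of log2 levels (vertical axis, with the limma SE) of PECAM1, CDH5, ANGPT1 and DCN in 4 comparisons. The dashed line is the median of all genes tested, at -0.28, -0.37, -0.13 and 0.36 from left to right, and the grey line is 0. No point is drawn where no array of a group was well above background and only a bound can be given, which holds for DCN in the first panel and for ANGPT1 and DCN in the last. All points of the first 3 panels lie below the dashed line, and in the last PECAM1 lies below it and CDH5 above.

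The shift of all genes depended on how bright they were, and the 4 genes belonged to different classes of brightness. With the tested genes divided by mean level into 4 classes of equal size (12192 genes in the NK comparisons, and 12388 divided anew for NK against B), DCN and ANGPT1 were in the dimmest class, CDH5 in the second and PECAM1 in the third. For CD27+ against CD27lo cells the median difference was -0.64 in the dimmest class, -0.40 in the second, -0.22 in the third and -0.06 in the brightest. For double positives against CD11b single positives it was -0.51, -0.31, -0.23 and -0.10 in the same order. For NK against B cells it was 0.92, 0.38, 0.09 and 0.09.

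PECAM1, CDH5, ANGPT1 and DCN were chosen by their levels on these same arrays. Setting them beside their class therefore cannot test for an excess over its median, and the values are descriptions. Set beside the median of its own class, ANGPT1 was further from 0 for CD27+ against CD27lo cells (-1.59 against -0.64), and so was DCN (-1.42 against -0.64). For CDH5 the pair was -0.87 and -0.40, and for PECAM1 -0.65 and -0.22. With normexp, for which no class median is given, ANGPT1 was at -0.73 and DCN at -0.55 in this comparison. DCN was well above background on only 1 CD27+ array. In NK against B cells PECAM1 (-1.86) had the opposite sign to its class, whose median was 0.09, and CDH5 (1.25) stood above the 0.38 of its class.

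CDH5 followed the dim genes closely from array to array. Over the 18 NK arrays its level had a Pearson r of 0.92 with the median level of the dimmest class of genes, against 0.71 for DCN, 0.64 for ANGPT1 and 0.63 for PECAM1. These are descriptions of 18 arrays that share scaling and background, and DCN and ANGPT1 are themselves in that class. The median level of that class was between -5.02 and -4.08 on double-positive arrays and between -4.87 and -3.34 on CD11b single-positive arrays. It was between -4.58 and -4.08 on CD27 single-positive arrays and between -3.88 and -3.51 on double-low arrays. The part of this shift in the differences of the 4 genes was not tested.

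**Figure D4:**
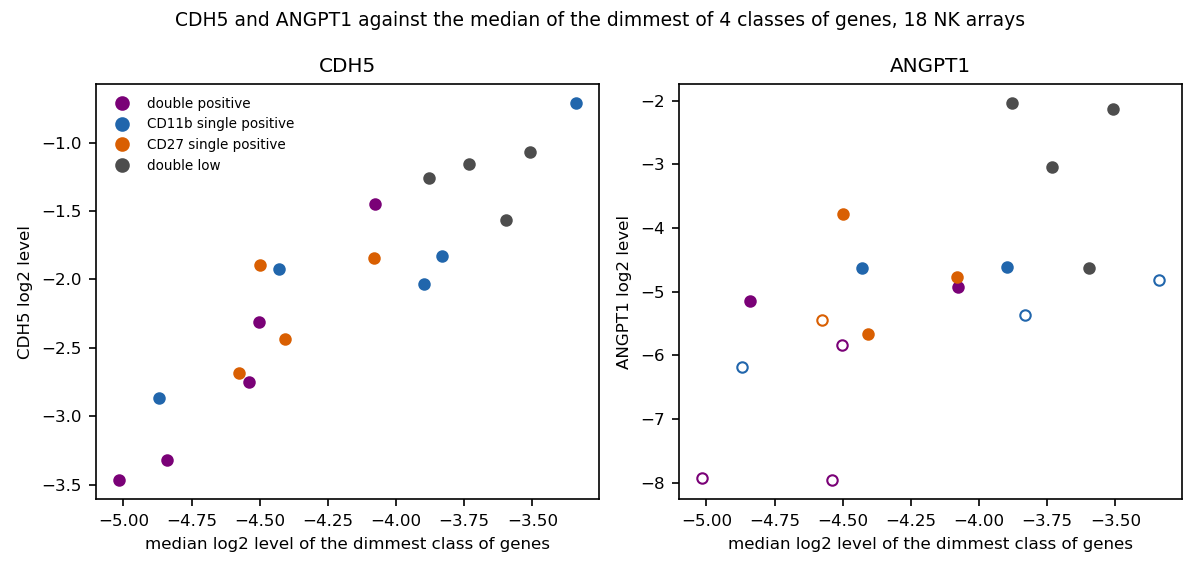
Level of CDH5 (left) and ANGPT1 (right) on the 18 NK arrays (vertical axes, log2 signal minus the array's 75th percentile) against the median level of the dimmest class of genes on the same array (horizontal axes). Filled points are well above background and open points are not. CDH5 rises along the axis (r = 0.92), whereas 3 double-low arrays stand above all others for ANGPT1 (r = 0.64).

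Within slides PECAM1 by its brightest probe differed by -1.32, -1.39 and -0.55 between double positives and CD11b single positives on slides 1, 2 and 3. Not all probes kept that direction, since XM_005584704 was at 0.13 on slide 2 and XM_005584706 at 0.0037 on slide 3. ANGPT1 differed by -1.46 on slide 1, where of these arrays only double-positive replicate 1 (-5.14) was well above background. On slide 2, where both arrays measured ANGPT1, it differed by -0.31, and on slide 3 neither double-positive array measured it. DCN was measured on no double-positive array, and its second probe was at 0.55 on slide 2. CDH5 differed by -1.76 on slide 1, 0.59 on slide 2 and -0.49 on slide 3, where the median of all genes was -0.53, -0.01 and 0.02. Slide 2 held 1 array of each of these subsets, and slides 1 and 3 held 2 of each. For CD27+ against CD27lo cells CDH5 was -1.50 on slide 1 and -0.04 on slide 2, while ANGPT1 was -1.82 and -1.02. The median of all genes there was -0.60 and -0.13. Both B cell arrays lay on slide 2, where NK minus B was -1.95 for PECAM1 and 1.61 for CDH5, with 0.48 as the median of all genes. Slide 3 held no CD11blo array, so it gives no value for the CD27 and CD11b comparisons over all 4 subsets.

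The markers of cells that could accompany an NK sort were read from 12 lists, with 12530 genes on the array to match against. Of 40 endothelial genes 29 had a matched probe and 28 were tested in the NK comparisons, ROBO4 being too dim. Of the 29, 20 were well above background on all 18 NK arrays and none was at background on all of them. Their mean level per array ran from -2.89 to -1.59 in double positives, from -2.85 to -1.53 in CD11b single positives, from -2.61 to -1.88 in CD27 single positives and from -1.81 to -1.26 in double-low cells. It was -2.99 and -2.86 in B cells. The NK list ran from 2.70 to 3.50 in double positives, from 1.95 to 3.50 in CD11b single positives, from 2.63 to 3.04 in CD27 single positives and from 1.20 to 2.79 in double-low cells, against -2.12 and -1.79 in B cells. Its median array was thus lowest in double-low cells among the NK subsets (2.25, against 3.17 in double positives), where that of the endothelial list was highest (-1.39, against -2.53). Most other lists, the platelet, monocyte, neutrophil and erythroid ones among them, were also highest in double-low cells among the NK subsets. The fibroblast list was highest in CD11b single positives (-1.64, against -2.23 in double-low cells) and the T cell list in CD27 single positives. The part of this in the levels of the 4 genes was not tested.

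For CD27+ against CD27lo cells 26 of the 28 endothelial genes tested had a negative difference, with a median of -0.62 against -0.37 over all genes, and 0 of 28 were called. Of all genes 66.1% were negative in this comparison. By class of brightness the share was 84.0% in the dimmest, 69.4% in the second, 59.0% in the third and 52.0% in the brightest. These are the shares to set beside this and the list counts that follow, and the lists were not divided by class. Without PECAM1 and CDH5 the endothelial count was 24 of 26 with a median of -0.61. ERG, a transcription factor of endothelial cells, was at -1.13 ± 0.38, VWF, the von Willebrand factor gene of endothelial cells and megakaryocytes, at -0.96 ± 0.46, and TEK, the receptor gene for angiopoietin-1, at -0.70 ± 0.39 (limma adjusted p = 0.20, 0.23 and 0.26). CLDN5, a tight junction gene of endothelial cells, had levels of 3.54 ± 0.57 in double positives, 4.08 ± 0.62 in CD11b single positives, 3.37 ± 0.39 in CD27 single positives and 4.30 ± 0.24 in double-low cells (SD).

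The partners of VE-cadherin and PECAM-1 had 7 genes tested, 4 of them negative for CD27+ against CD27lo cells (median -0.21). CTNNB1 at 1.60 ± 0.59 and CTNNA1 at 1.25 ± 0.36, genes of catenins that tie cadherins to actin, stood on the positive side. JUP, which encodes plakoglobin, stood at -0.46 ± 0.31 (limma adjusted p = 0.20, 0.20 and 0.33 for CTNNB1, CTNNA1 and JUP). CTNNA1 averaged -0.99 ± 0.91 in double positives, -2.38 ± 0.82 in CD11b single positives, -0.30 ± 0.27 in CD27 single positives and -1.40 ± 0.68 in double-low cells (SD), a different order of subsets from CDH5.

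All 7 tested genes of the angiopoietin and TIE pathway were negative for CD27+ against CD27lo cells, with a median of -0.70. Without ANGPT1 the median was -0.68 over 6 genes. TEK averaged -3.47 ± 0.92 in double positives, -3.11 ± 0.66 in CD11b single positives, -2.89 ± 0.69 in CD27 single positives and -1.86 ± 0.88 in double-low cells, where its mean was highest, as that of ANGPT1 was. ANGPT4, which encodes another TIE2 ligand, had nearly equal means in CD11b single positives (-0.79 ± 0.61) and double-low cells (-0.81 ± 0.27).

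Of 24 matrix genes tested, DCN among them, 24 were negative for CD27+ against CD27lo cells, with a median of -0.56. For double positives against CD11b single positives 22 were negative, with a median of -0.61. In that comparison 67.5% of all genes were negative. By class the share was 78.6% in the dimmest, 71.5% in the second, 64.5% in the third and 55.5% in the brightest. Without DCN the median for CD27+ against CD27lo cells was -0.55, with 23 of 23 genes negative. COL6A3, a collagen VI chain, differed by -1.23 ± 0.52 between double positives and CD11b single positives, and FMOD, which encodes fibromodulin, a relative of decorin, by -1.93 ± 0.91 (limma adjusted p = 0.78 for both). COL11A1 went its own way for CD11b, at 2.15 ± 0.59 for CD11b+ against CD11blo cells (limma adjusted p = 0.77). Of 16 genes of fibroblasts, reticular cells and mural cells 14 were negative for CD27+ against CD27lo cells (median -0.59), with PDGFRA, a receptor of mesenchymal cells, at -1.37 ± 0.55 and THY1 at 0.64 ± 0.61.

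Lists for cells that are not part of vessels or stroma gave medians in the same range. For CD27+ against CD27lo cells the median was -0.61 for platelets and megakaryocytes (11 of 12 genes negative), -0.56 for monocytes and macrophages (14 of 15), -0.62 for neutrophils (11 of 11), -0.67 for erythroid cells (6 of 6) and -0.53 for B cells (9 of 10). It was 0.16 for T cells (1 of 5 negative) and 0.53 for NK cells (3 of 14). None of these genes was called in that comparison, and the part of any other cell type in the levels of the 4 genes was not tested. Of the defining markers of other cells, CDH5 and VWF (endothelial), GP9 (platelets), SIGLEC1 (macrophages) and AHSP (erythroid cells) were well above background on all 18 NK arrays, and MPO (neutrophils) on 14 of them. Of whole lists, 9 of 12 platelet, 11 of 15 monocyte and macrophage and 8 of 11 neutrophil genes were on all 18. So were 5 of 6 erythroid, 5 of 10 B cell and 4 of 5 T cell genes. Between 67.9% and 96.0% of all probes carried that flag on a single array, which is not a like share for these counts. The share of all genes flagged on all 18 NK arrays was not computed. Whether these counts or the endothelial one are usual is therefore not known. List genes were counted by any of their probes, whereas DCN was well above background on 7 NK arrays and ANGPT1 on 11 by their brighter probes.

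**Figure D5:**
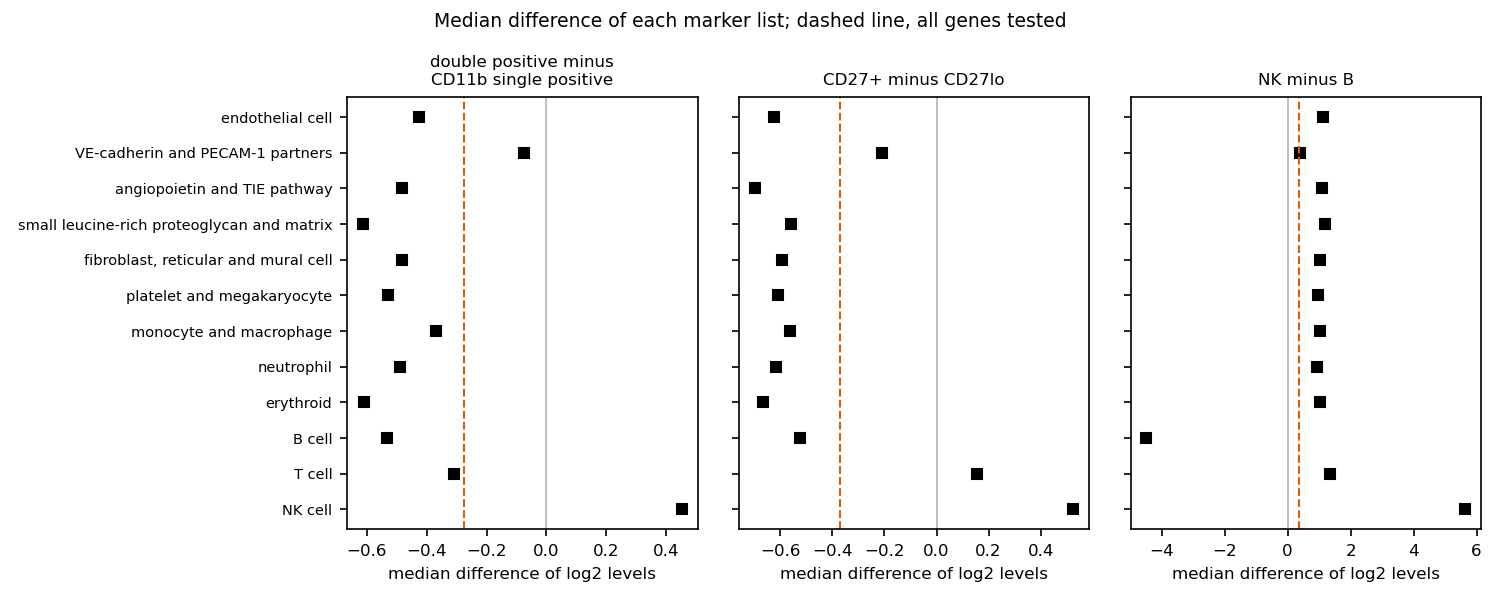
Median difference of log2 levels (horizontal axis) over the tested genes of each of 12 marker lists, in 3 comparisons. The dashed line is the median of all genes tested and the grey line is 0. In the middle panel 9 lists lie between -0.70 and -0.53, left of the dashed line, while the T cell and NK lists lie right of 0.

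Against B cells, 2 of 29 endothelial, 1 of 25 matrix, 1 of 16 fibroblast and 1 of 12 platelet genes tested were higher in NK cells at an adjusted p under 0.05, where 1.72% of all genes were. CLDN5 rose by 1.95 ± 0.41 (limma adjusted p = 0.0112), and THBD, which encodes thrombomodulin, had an adjusted p of 0.0357 and was at least 1.43-fold higher. COL6A3 was at least 2.90-fold higher (adjusted p = 0.0202) and THBS1, which encodes thrombospondin-1, at least 6.10-fold higher (adjusted p = 0.0272), since neither was well above background in B cells. THY1 rose by 3.66 ± 0.94 (adjusted p = 0.0411). For CLDN5, THBD, THY1 and THBS1 the 2 groups did not overlap, with 18 of 18 NK arrays on the higher side, as for 7.46% of all genes tested, and for COL6A3 17 of 18 NK arrays were above the B cells. None of the 5 kept an adjusted p under 0.05 when either B cell array was left out (CLDN5 0.0525 and 0.465 by limma). THBD (adjusted p = 0.287, 0.269 and 0.292) and THBS1 (0.0852, 0.0743 and 0.0917) also lost it with quantile normalization, normexp and the deposited matrix, COL6A3 with normexp (0.18) and the mean of probes (0.07), and THY1 with quantile normalization (0.0564), the deposited matrix (0.0563) and slide as a block (0.0801).

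In the same comparison 11 of 14 NK genes were higher in NK cells, among them KLRD1, the CD94 gene, by 6.68 ± 0.57 (limma adjusted p = 7.43e-07). Of 10 B cell genes 7 were lower, among them CD22 by -5.74 ± 0.58 (adjusted p = 6.85e-06). Without B cell replicate 1, 3 of these 7 were still called and 9 of the 11 NK genes, and without B cell replicate 2, 2 of 7 and 11 of 11. The sorts thus differed in the markers of their own lineages, by more than PECAM1 and CDH5 did. Of the 5 T cell genes 1, TRAT1, was called.

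Among the 12191 other tested genes the patterns most like each of the 4 were found by Pearson r over the 18 NK arrays. For CDH5 they were GPR157 (0.97), TAF8 (0.97), TMEM207 (0.95), KRT72 (0.95) and HBM (0.94). For PECAM1 they were POF1B (0.85), MFSD4A (0.83), NODAL (0.82), SERPINH1 (0.81) and LOC102119956 (0.80). HBM is a globin gene of the erythroid list. For ANGPT1 they were CFAP52 (0.86), PRLHR, KRT25, CNR1 and BDNF (0.84 each). For DCN they were PFDN6 (0.93), PHRF1 (0.89), HSPB2 (0.87), HID1 (0.86) and SH3BP4 (0.86).

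None of these 20 genes is in the endothelial or matrix lists, and the 4 genes were not one another's closest matches. CDH5 ranked at 210 among the genes most like DCN (r = 0.76) and at 162 among those most like ANGPT1 (r = 0.75). CDH5 and PECAM1, the junction partners of endothelial cells, had an r of 0.52, DCN and PECAM1 0.50, DCN and ANGPT1 0.47, and ANGPT1 and PECAM1 0.19. The arrays of 1 subset are not independent points in these coefficients.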

How the data were processed

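The 18 NK arrays and 2 B cell arrays hold RNA of 1 sort each. Per the labels' protocols, RNA was amplified isothermally and labelled with Cy3. Agilent Feature Extraction 10.7.1.1 and Partek are the tools named per the submitters' processing notes. Per the file headers, the processed signal is a background-subtracted, detrended intensity. The authors' deposited matrix holds log2 values that share a median across arrays, and was an alternative only. The genome build is not given in the sources used here.

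Non-uniform and outlier spots were left out and probes were named by transcript accession, without version, through the RefSeq table (34.8% matched). A gene was tested if its probe was well above background on at least 4 of 18 NK arrays, or 2 of 20 for B cells, and the brightest probe stood for it. Log2 signal minus the array's 75th percentile entered limma (version 3.58.1, R 4.3.3; trend, robust, no block), with Benjamini-Hochberg adjustment at 0.05. NK minus B set the mean of the 4 subset means against B cells. The fit was tested on simulated data.

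The 4 genes, the lists and the rule for named genes (up to 4 per list by lowest p, every list gene that passed, and the 5 genes most like each of the 4) were chosen with earlier results of these data known. The labels call the arrays of a subset biological replicates without naming animals, so p-values measure the spread between these arrays. Alternatives were other background corrections and normalizations, the deposited matrix, no filter, other probe rules, slide, replicate and donor blocks, and leaving out arrays. Values relative to negative controls and within slides were added after seeing the data.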

Additional observations from a re-analysis of the deposited data

How the results depend on the processing

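For double positives against CD11b single positives 0 genes were called under every alternative run. For CD27+ against CD27lo cells 1 gene was called with normexp background correction and 0 to 1 when an array was left out. For CD11b+ against CD11blo cells, where 2 were called, 1 was called with the mean of probes, 1 without the 2 dimmest arrays, 1 with the replicate block, 0 with slide as a block and 14 with every probe tested, and 1 to 4 when an array was left out. The F test called 3 with normexp, 12 with every probe and 0 to 1 when an array was left out. NK minus B called 602 with slide as a block, 1819 with every probe and 56 to 717 when an array was left out, the extremes being without B cell replicate 1 and without CD11b single-positive replicate 4. With the replicate block the other NK counts were 0. Same-numbered arrays of different subsets had a median r of 0.22 in their deviations, against -0.07 for other numbers. Only 17 of 25 pairs passed 0.1 where all had to. Number 4 joins CD11blo arrays of 18 years with CD11b+ arrays of 5 years, whose pairs had r of 0.0191, 0.0881, -0.137 and 0.226. The replicate block joined these ages too, while the 18-year arrays numbered 4 and 5 counted as other numbers. The numbers are thus at most a hint of pairing and not part of the design. For NK minus B no replicate block was run, since B cell replicate 1 (5 years) and NK replicate 1 (4 years) differ in age. With donor labels inferred from origin, sex, age and number as a random block 370 were called.

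Under the alternatives 487 values of the 4 genes moved by less than the spread between replicates and 13 by more. PECAM1 for double positives against CD11b single positives was -0.68 without double-positive replicate 1 and -1.46 without double-positive replicate 2. ANGPT1 with normexp was -0.16 in that comparison, -0.60 for CD11b+ against CD11blo and -0.73 for CD27+ against CD27lo cells. DCN for CD27+ against CD27lo was -0.55 with normexp and -0.67 with quantile normalization, and for CD11b+ against CD11blo 0.13 with quantile normalization. The fitted values of ANGPT1 and DCN for NK minus B, where only bounds hold, went down to 0.30 and -0.01 under other scalings, and that of DCN ran from 0.34 to 1.55 when a B cell array was left out. The cause was not tested. By their brighter probes ANGPT1 was well above background on 11 and DCN on 7 of the 18 NK arrays, and both on neither B cell array.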
